A study of Mus musculus with 8 samples.

Results

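The genes described here are 10 imprinted genes, that is, genes read mainly from the copy inherited from 1 parent, that act in growth or make long noncoding RNA: H19, Igf2, Meg3, Rian, Mirg, Dlk1, Peg3, Mest, Cdkn1c and Grb10. They were taken by name from the 15433 genes of the deposited expression table, and all 10 had a row. RNA was measured by mRNA sequencing in whole gastrocnemius (GST) muscle of 6-month-old female mice, in 4 WT and 4 STIM1+/D84G libraries, 1 per mouse. WT mice were age- and sex-matched C57BL/6 animals. STIM1+/D84G mice, which the sample labels call Sax, carry on 1 allele of Stim1 a germline A-to-G change in the exon that codes for the Ca2+-binding EF hand of the sensor protein, so every cell of the body carries it and no promoter or Cre limits it to muscle. Which parent passed on the mutation, and which parental copy each read came from, was not analysed here.

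Imprinted genes lie in clusters, and DNA methylation laid down in the egg or the sperm decides which parental copy is read. Igf2, a growth factor of the embryo, is read from the paternal copy, and its neighbour H19, a noncoding RNA that is abundant in skeletal muscle, from the maternal copy. In the Dlk1-Dio3 cluster the protein gene Dlk1 is paternal and the noncoding RNAs Meg3, Rian and Mirg are maternal. Peg3 and Mest are read from the paternal copy, Cdkn1c from the maternal copy, and Grb10 from the maternal copy in most tissues. As a group these genes are known for control of fetal growth, for a fall in expression after birth, and for a role in muscle stem cells and muscle repair.

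Several of the 10 genes are also hosts of small RNAs, and the sequences show what the noncoding transcripts carry. Of the mature miRNAs in RefSeq (GRCm38.p6, the NCBI name of the mm10 build), 41 lay inside the gene bodies of 6 of the 10 genes on the same strand: 26 in Mirg, 6 in Rian, 3 in Meg3, and 2 each in H19, Igf2 and Mest. miR-675 lies in an exon of H19 (its 5p arm at chr7:142577112-142577133), miR-483 in an intron of Igf2 and miR-335 in an intron of Mest. Capitals mark the seed, bases 2 to 8, which pairs with targets.
mmu-miR-675-5p: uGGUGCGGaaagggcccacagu
mmu-miR-675-3p: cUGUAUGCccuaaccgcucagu
mmu-miR-483-5p: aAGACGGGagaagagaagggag
mmu-miR-483-3p: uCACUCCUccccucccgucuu
mmu-miR-335-5p: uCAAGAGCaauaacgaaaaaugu
mmu-miR-335-3p: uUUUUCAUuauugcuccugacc
mmu-miR-370-3p: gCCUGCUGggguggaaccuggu
mmu-miR-770-5p: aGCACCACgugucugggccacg
mmu-miR-453: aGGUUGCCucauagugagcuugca
mmu-miR-496a-5p: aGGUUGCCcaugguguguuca
The miRNAs of H19, Igf2 and Mest come first, followed by miR-370-3p of Rian, miR-770-5p of Meg3 and the pair hosted by Mirg that shares a seed, GGUUGCC. That pair is the reason why the 26 miRNAs of Mirg have 25 seeds. The mRNA libraries count the host transcripts and not the mature miRNAs, whose levels were not measured.

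Promoter windows of 300 bases, 250 before and 50 after a start site, were in RefSeq (GRCm38.p6) for 8 of the 10 genes, with no entry for H19 and Cdkn1c. The window of Peg3 (chr7:6730370-6730669, minus strand) and 1 of the 2 windows of Meg3 (chr12:109540746-109541045, plus strand) held the 8-letter palindrome TGACGTCA, the cyclic AMP response element, which is bound by CREB and ATF proteins. They are shown because the gene with the largest rise and a noncoding RNA that did not pass the test share it. Capitals mark it.
Peg3: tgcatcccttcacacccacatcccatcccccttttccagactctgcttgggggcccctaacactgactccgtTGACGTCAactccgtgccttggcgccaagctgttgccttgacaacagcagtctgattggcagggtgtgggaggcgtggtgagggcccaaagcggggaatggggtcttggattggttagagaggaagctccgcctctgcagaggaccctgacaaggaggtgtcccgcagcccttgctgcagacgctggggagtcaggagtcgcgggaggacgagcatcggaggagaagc
Meg3: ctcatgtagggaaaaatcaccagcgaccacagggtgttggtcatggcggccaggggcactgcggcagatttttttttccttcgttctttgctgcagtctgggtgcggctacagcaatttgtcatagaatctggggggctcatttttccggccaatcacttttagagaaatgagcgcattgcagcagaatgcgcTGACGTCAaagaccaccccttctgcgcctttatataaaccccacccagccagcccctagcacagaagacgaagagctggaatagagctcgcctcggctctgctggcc
The element starts at base 73 of the Peg3 window and at base 194 of the Meg3 window, counted from the 5′ end. It was found in none of the windows of the other 6 genes, and in 588 of the 32851 promoter windows of the table (1.79%). It was picked from several motifs that were searched for after the sequences had been read. Others matched too: TGCCGC in windows of Mest, Igf2, Grb10 and Meg3, and CCATNTT, where N is any base, in windows of Igf2 and Grb10. CAGCTG matched in a window of Mest, and TATAAA in the printed window of Meg3. These were found in 11.6%, 16.1%, 16.3% and 13.6% of the windows of the table, in that order. A match of letters is a description, not evidence of binding. Both printed windows held 13 CpG dinucleotides, against a median of 7 over the table.

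Depth was similar in the 2 groups: between 28698738 and 33661535 reads fell in listed genes in WT libraries and between 27481177 and 35018732 in STIM1+/D84G libraries. Values below are normalized counts, that is, reads per gene after each library was divided by its own size factor, so that 1 read is worth 1.02 to 1.21 in WT and 0.783 to 0.964 in STIM1+/D84G libraries. All 6 muscle fibre markers were abundant, with summed levels of 6178470 to 6672190 in WT and 3559010 to 4135730 in STIM1+/D84G libraries. A substitution leaves the count of Stim1 uninformative about the genotype, so the labels were not checked that way. Xist, a noncoding RNA of female cells, was present in every library but lowest in WT replicate 4. It had 1989 normalized counts there, against 5152 to 6211 in the other WT libraries and 5726 to 6441 in STIM1+/D84G libraries. The cause was not tested. In whole muscle, fewer cells of a type and less RNA per cell cannot be told apart.

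Of the 10 genes, 6 had higher levels in STIM1+/D84G muscle, 1 had a lower level and 3 missed the threshold (limma, Benjamini-Hochberg adjusted p under 0.05 over all genes). Peg3, Cdkn1c, Igf2, Mest, Rian and H19 were higher, Dlk1 was lower, and Grb10, Meg3 and Mirg did not pass. Across all genes tested, 25.0% were higher and 24.4% were lower by the same rule, 49.4% together, beside 7 of the 10 genes. The median log2 fold change was 0.44 over the 10 genes and 0.01 over all 15433 genes. In 5 genes the 4 STIM1+/D84G values all lay above the 4 WT values, and in Dlk1 all lay below, against 23.0% of all genes in each direction and 46.0% in either. Of the 6 genes read from the maternal copy 3 were higher and 3 did not pass, with a median of 0.27, and of the 4 paternal genes 3 were higher and 1 was lower, with a median of 0.90. All 10 genes passed the filter on low values, a mean of 0.5.

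**Figure D1:**
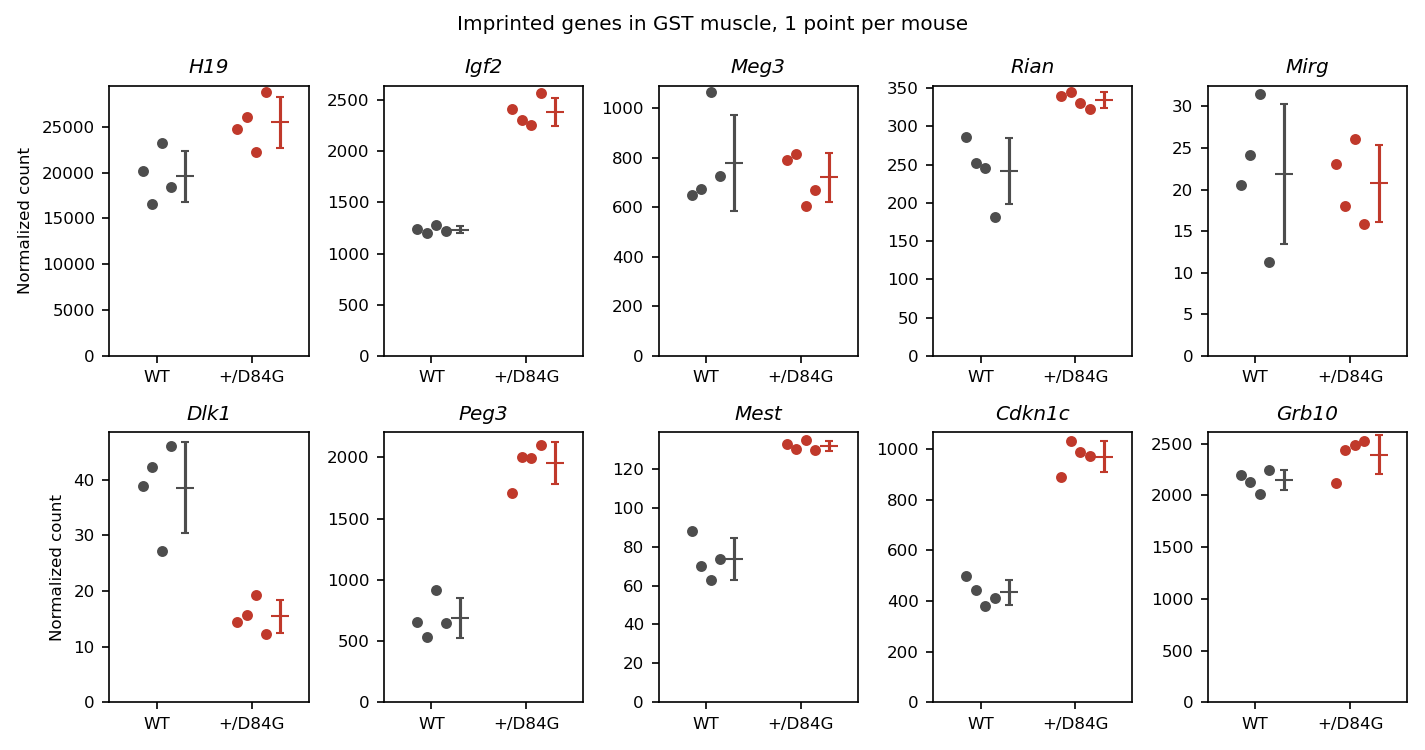
Normalized counts (vertical axes, linear and starting at 0) of the 10 genes in WT (grey) and STIM1+/D84G (red) GST muscle. Each point is 1 mouse, and the bar beside the points is the mean ± SD of 4 mice. The groups are apart in Igf2, Rian, Dlk1, Peg3, Mest and Cdkn1c and overlap in H19, Meg3, Mirg and Grb10.

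**Figure D2:**
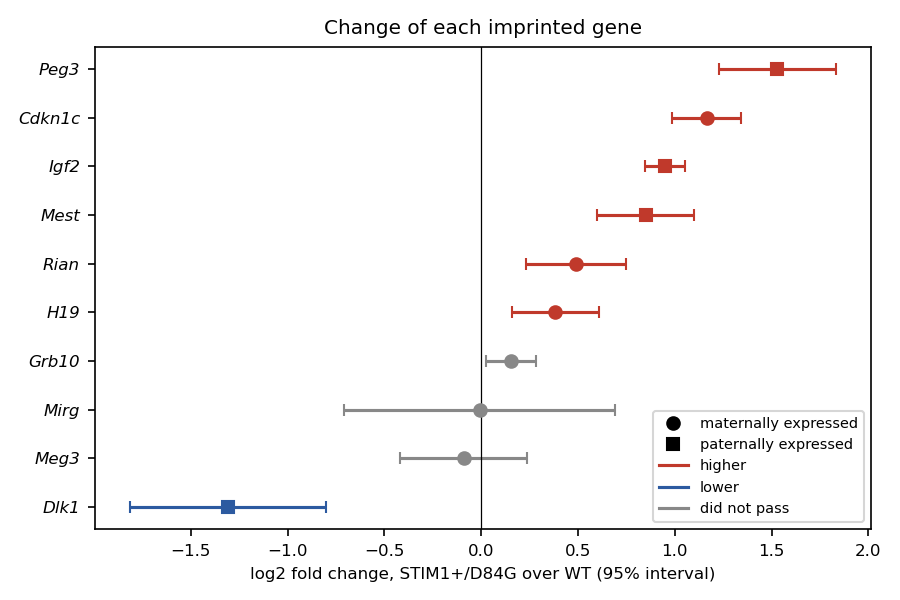
Log2 fold change of STIM1+/D84G over WT (horizontal axis) with its 95% interval from limma, from Peg3 at 1.53 to Dlk1 at -1.31. Circles are genes read from the maternal copy and squares from the paternal copy, and grey marks the 3 genes that did not pass the test.

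Igf2, which signals for growth through the IGF1 receptor, was higher in all 4 STIM1+/D84G libraries. It lies at chr7:142650766-142666816 on the minus strand. Normalized counts of Igf2 were 1236, 1203, 1275 and 1224 in the 4 WT libraries and 2413, 2307, 2254 and 2569 in the 4 STIM1+/D84G libraries. The lowest STIM1+/D84G library exceeded the highest WT library by 979 normalized counts. The mean was 1234 ± 30.4 in WT and 2386 ± 139 in STIM1+/D84G muscle (SD, n = 4 each), a log2 fold change of 0.95 (SE 0.05, limma adjusted p = 1.79e-07). Exons of Igf2 share 3596 bases with Gm49394, a gene model on the same strand that was not analysed here, and 98 bases with Igf2os on the opposite strand, and how reads were split between such genes is not given in the sources used here.

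H19, the noncoding RNA 72.6 kb away on the same strand of chromosome 7 (chr7:142575529-142578143), was also higher, by a smaller factor and with overlap. Its normalized counts were 20194, 16619, 23171 and 18414 in WT libraries and 24740, 26057, 22238 and 28830 in STIM1+/D84G libraries. WT replicate 3, the highest of its group, lay above STIM1+/D84G replicate 3, the lowest of its group. The mean rose from 19599.5 ± 2793 to 25466 ± 2746 (SD, n = 4 each), with a log2 fold change of 0.38 (SE 0.10, limma adjusted p = 0.00933). An exact permutation test of the H19 values, 2-sided, gave p = 0.0571, where the smallest p that 4 against 4 libraries allow is 0.0286. The column names of the table carry a number of unstated meaning, and within the 5 libraries that share it (WT replicates 3 and 4 and STIM1+/D84G replicates 2, 3 and 4) the log2 fold change of H19 was 0.31 and no longer passed (limma adjusted p = 0.0774).

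Cdkn1c encodes p57KIP2, an inhibitor of cyclin-dependent kinases that holds differentiating myoblasts out of the cell cycle. It lies 792 kb from Igf2, at chr7:143458339-143461050 on the minus strand. Cdkn1c levels were 499, 442, 381 and 412 normalized counts in WT and 888, 1032, 987 and 971 in STIM1+/D84G libraries, so the groups did not overlap. The mean went from 433 ± 50.2 to 969 ± 60.3 (SD, n = 4 each), with a log2 fold change of 1.17 (SE 0.08, limma adjusted p = 1.40e-06). Its exons share 625 bases with Gm44732, an antisense gene model not analysed here.

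Among all 7 CDK inhibitors, Cdkn1c included, 4 were higher and 2 were lower. Cdkn1a, which encodes p21, was higher by 1.61 on the log2 scale (SE 0.14), from 498 ± 121 to 1488 ± 62.8 normalized counts (SD, n = 4 each). Cdkn2a, which encodes p16 and p19ARF, was higher from a very low WT level, 1.07 ± 0.84 against 11.1 ± 5.29 normalized counts. Cdkn2c, which encodes p18, fell by 0.40 and Cdkn1b, which encodes p27, fell by 0.20 on the log2 scale. Both of these depend on scaling: with libraries scaled to their totals Cdkn2c was at -0.05 and Cdkn1b at 0.15, and neither passed. The fourth higher gene, Cdkn2d (0.24), which encodes p19INK4d, did not pass with replicate numbers as a block (limma adjusted p = 0.0607) or after quantile normalization (limma adjusted p = 0.193), and passed in 3 of 8 fits that left out 1 library. Within the Cip/Kip family the change of Cdkn1c lay between those of Cdkn1a and Cdkn1b, and the difference between these changes was not tested.

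The other genes listed as imprinted near Igf2 and Cdkn1c did not move as a block. Whether each of them is read from 1 parental copy in adult muscle was not analysed here. Of 9 measured genes of the H19-Igf2 and Kcnq1 region 5 were higher and 1 lower, and 3 missed the threshold, with a median log2 fold change of 0.38. Cd81, which encodes a tetraspanin of the cell surface, was higher by 0.43, and Osbpl5, a lipid transfer protein gene, by 0.18. Nap1l4, a nucleosome assembly protein gene, was lower at -0.30, and at 0.05 when libraries were scaled to their totals. Kcnq1, the potassium channel gene of the cluster, had a log2 fold change of 0.26 and did not pass, at 20.7 ± 4.67 normalized counts in WT muscle (SD, n = 4). Slc22a18, a transporter gene, had a log2 fold change of 0.43 and did not pass either, at 7.56 ± 1.51 normalized counts in WT.

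Grb10 encodes an adaptor protein that binds the insulin and IGF1 receptors and dampens their signal. The gene lies at chr11:11930508-12038683 on the minus strand. Its normalized counts were 2199, 2131, 2016 and 2241 in WT and 2118, 2437, 2488 and 2526 in STIM1+/D84G libraries. STIM1+/D84G replicate 1 lay within the WT range and the other 3 above it. With means of 2147 ± 98.4 and 2392 ± 186 (SD, n = 4 each) the log2 fold change was 0.15 (SE 0.06, 95% interval 0.02 to 0.29), and the limma adjusted p of 0.0508 did not pass. Without STIM1+/D84G replicate 1 the log2 fold change of Grb10 was 0.21 and passed (limma adjusted p = 0.00401). It passed in 10 of 21 alternative settings in all, so the call for Grb10 is at the threshold. Among the 21, leaving out the filter and scaling by median of ratios repeat the main fit.

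Of the 2 imprinted neighbours of Grb10, Ddc, which encodes aromatic L-amino acid decarboxylase, was higher, from 11.97 ± 5.72 to 57.5 ± 10.8 normalized counts (SD, n = 4 each), a log2 fold change of 2.34 (SE 0.29). Cobl, an actin nucleator gene, was at -0.04 and did not pass. In the wider IGF and insulin receptor axis, 6 of 17 measured genes were higher and 5 were lower, Igf2 being among the higher. With libraries scaled to their totals 12 were higher and 1 lower. Of all 15433 genes, that scaling made 9480 higher and 761 lower. Of the 5 genes of the axis that were lower in the main fit, Grb14 and Igf2bp3 each passed in 1 of 8 fits that left out 1 library. Igf2bp2, which encodes an RNA-binding protein of Igf2 mRNA, was higher by 1.68 on the log2 scale, and Irs2, which encodes a docking protein of both receptors, was lower at -0.91.

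Peg3, a paternally read gene for a large zinc finger protein that is active in muscle progenitor cells of mice, had the largest rise of the 10 genes. It lies near the start of chromosome 7, at chr7:6703892-6730431 on the minus strand, far from H19. Peg3 levels were 656, 530, 919 and 647 normalized counts in WT libraries and 1706, 2004, 1999 and 2101 in STIM1+/D84G libraries. WT replicate 3 was the highest WT library, and still 787 normalized counts below the lowest STIM1+/D84G library. The mean changed from 688 ± 164 to 1953 ± 171 (SD, n = 4 each), a log2 fold change of 1.53 (SE 0.14, limma adjusted p = 7.01e-06). Zim1, the other measured gene of the Peg3 region and a zinc finger gene read from the maternal copy, was higher by 0.45 on the log2 scale, from 109 ± 12.9 to 148 ± 8.54 normalized counts. After quantile normalization Zim1 was at 0.22 and did not pass (limma adjusted p = 0.0845).

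Mest encodes a protein of the alpha/beta hydrolase fold that is linked to fat and muscle growth. It lies at chr6:30723547-30748465 on the plus strand. The 4 WT libraries held 88.0, 69.9, 62.9 and 73.7 normalized counts of Mest and the 4 STIM1+/D84G libraries 133, 130.1, 135 and 129.5. The STIM1+/D84G values sat close together, and all lay above the WT values. The mean rose from 73.6 ± 10.6 to 132 ± 2.51 (SD, n = 4 each), with a log2 fold change of 0.85 (SE 0.11, limma adjusted p = 1.09e-04). Mest exons share 912 bases with Copg2 on the opposite strand, a coat protein gene at 544 ± 46.9 normalized counts in WT muscle (SD, n = 4). Copg2 itself was at -0.06 on the log2 scale and did not pass. The imprinted genes listed here together with Mest and Peg10, not all of them neighbours, went both ways, with 4 of 10 higher and 2 lower. Peg10, a gene derived from a retrotransposon, was higher by 1.29, from 98.8 ± 17.2 to 241 ± 18.6 normalized counts, while Asb4, which encodes an ankyrin-repeat subunit of a ubiquitin ligase, was lower at -1.03, from 424 ± 79.2 to 205 ± 23.1.

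The Dlk1-Dio3 cluster of chromosome 12 held the only gene of the 10 that was lower. Dlk1 encodes a membrane protein with EGF-like repeats, related to Notch ligands, that restrains adipocyte differentiation. It lies at chr12:109452823-109463336 on the plus strand. Its normalized counts were 38.9, 42.2, 27.1 and 46.1 in WT and 14.4, 15.7, 19.3 and 12.3 in STIM1+/D84G libraries, from 14 to 45 reads per library. All STIM1+/D84G values lay below all WT values. The mean fell from 38.6 ± 8.18 to 15.4 ± 2.92 (SD, n = 4 each), a log2 fold change of -1.31 (SE 0.23, limma adjusted p = 7.50e-04). By size of log2 fold change Dlk1 ranked 110 from the bottom of all 15433 genes.

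Meg3, a noncoding RNA 77.7 kb downstream of Dlk1 on the same strand (chr12:109541001-109571726), did not pass the test. Its normalized counts were 647, 673, 1065 and 725 in WT and 789, 816, 604 and 670 in STIM1+/D84G libraries. WT replicate 3 was the highest of the 8 libraries, and the remaining WT values lay within the STIM1+/D84G range. The log2 fold change was -0.09 with a 95% interval of -0.42 to 0.24 (limma adjusted p = 0.643), and without WT replicate 3 it was 0.07. Meg3 exons share 1228 bases with Gm26906 on the opposite strand, which was not analysed here.

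Rian, the next noncoding RNA and host of small nucleolar RNAs (chr12:109603940-109661716), was higher. Rian was measured at 286, 252, 246 and 182 normalized counts in WT and at 340.1, 345, 331 and 322 in STIM1+/D84G libraries. WT replicate 4 was the lowest, and no value of the groups overlapped. The mean went from 242 ± 43.3 to 334 ± 9.93 (SD, n = 4 each), a log2 fold change of 0.49 (SE 0.12, limma adjusted p = 0.00507).

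Mirg, the miRNA host at the far end of the cluster (chr12:109729764-109749460), was low, at 11 to 29 reads per library. Its normalized counts were 20.6, 24.1, 31.4 and 11.3 in WT and 23.1, 18.02, 26.0 and 15.9 in STIM1+/D84G libraries, and every STIM1+/D84G value lay within the WT range. The log2 fold change of -0.01 had a 95% interval of -0.71 to 0.69 (limma adjusted p = 0.985). Of the other measured genes of the cluster, Begain, a gene for a neuronal scaffold protein, was higher by 1.06 on the log2 scale with overlap and at 13.2 ± 6.30 normalized counts in WT. Begain did not pass after quantile normalization (0.61, limma adjusted p = 0.129), and passed in 3 of 8 fits that left out 1 library. Dio3, which encodes the deiodinase that inactivates thyroid hormone, was at 0.09 and did not pass.

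Ratios within a library do not depend on how libraries are scaled, and 5 ratios between neighbours were compared by exact permutation tests, 2-sided, with p values adjusted over the 5 by Benjamini-Hochberg. They are ratios of normalized counts, not per length. The ratio of H19 to Igf2 was 16.3, 13.8, 18.2 and 15.05 in WT and 10.3, 11.3, 9.87 and 11.2 in STIM1+/D84G libraries. All 4 STIM1+/D84G ratios were lower, with a log2 difference of -0.57 (exact p = 0.0286, adjusted p = 0.0714). The ratio of Cdkn1c to H19 lay higher in all 4, at 0.0225 ± 0.00442 against 0.0384 ± 0.00469 (SD, n = 4 each; log2 difference 0.78, exact permutation p = 0.0286, adjusted p = 0.0714). Both p values are the smallest that 4 against 4 allow, and after adjustment over 5 ratios neither passed 0.05.

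Within the chromosome 12 cluster the ratio of Dlk1 to Meg3 was 0.0601, 0.0627, 0.0255 and 0.0636 in WT and 0.0183, 0.0192, 0.0319 and 0.0184 in STIM1+/D84G libraries. Replicate 3 of each group stood apart, and those libraries overlapped. The log2 difference was -1.22 (exact permutation p = 0.0571, adjusted p = 0.0952). For Rian to Meg3 the means were 0.325 ± 0.1005 and 0.470 ± 0.0573 (SD, n = 4 each), with overlap and a log2 difference of 0.58 (exact permutation p = 0.0857, adjusted p = 0.107). For Mirg to Meg3 they were 0.0282 ± 0.00882 and 0.0295 ± 0.00955 (exact permutation p = 0.857). Within pairs of equal replicate number an exact permutation test cannot go below p = 0.125, so that form of the test says nothing here.

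**Figure D3:**
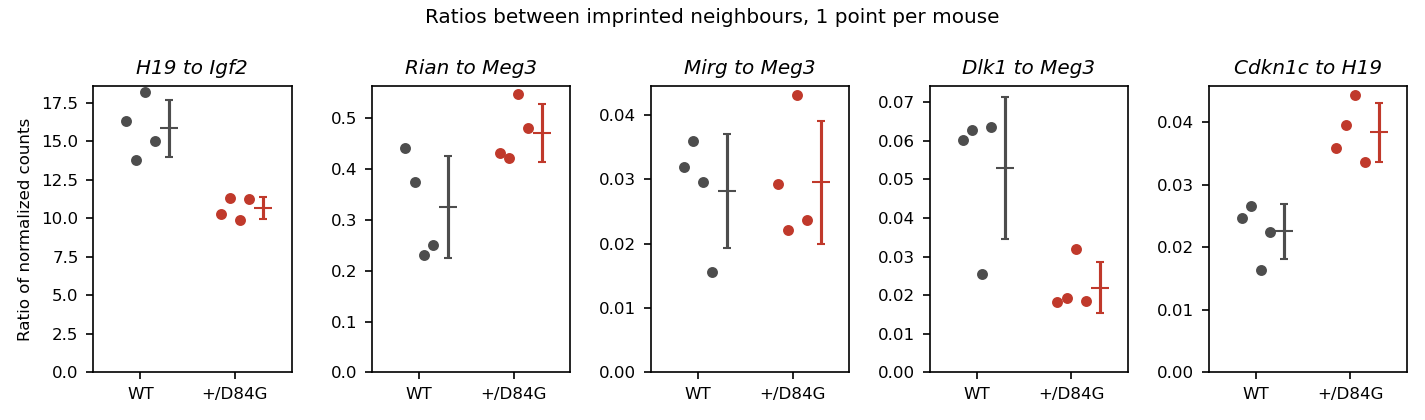
Ratios of normalized counts between neighbouring imprinted genes (vertical axes, linear from 0) in WT (grey) and STIM1+/D84G (red) libraries. Each point is 1 mouse and the bars are the mean ± SD of 4 mice. The groups are apart for H19 to Igf2 and Cdkn1c to H19, and WT replicate 3 is the low WT point of Dlk1 to Meg3, at 0.0255.

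Levels were compared between genes only per kb of annotated exon (GENCODE vM21, all exons of a gene merged), and these are levels, not differences. H19 was far above the rest, at 7967 ± 1135 normalized counts per kb in WT and 10352 ± 1116 in STIM1+/D84G muscle (SD, n = 4 each), and only 100 genes of the table had a higher level per kb in WT. In WT the order then ran Grb10 at 236, Igf2 at 216 and Cdkn1c at 213, whose neighbours overlap in range, followed by Peg3 at 51.7 and Meg3 at 43.0, which overlap too. Mest at 18.7, Rian at 13.2, Dlk1 at 6.82 and Mirg at 2.996 per kb each lay clear of the next. In STIM1+/D84G muscle Cdkn1c at 475 and Igf2 at 417 per kb stood above Grb10 at 263, Peg3 at 147 was clear of Meg3 at 39.8, and Dlk1 at 2.73 overlapped Mirg at 2.84. The length is that of all annotated exons, whichever isoform the muscle makes.

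Profiles most like those of H19, Igf2 and Meg3 were sought over the 8 libraries among the 11443 genes with a mean of at least 50, by the root mean square difference of log2 values centred on WT. Nearest to Igf2 were Calr, the gene of the ER chaperone calreticulin, at 0.0698, Vat1 at 0.0702 and the matrix metalloprotease gene Mmp2 at 0.0710. Nearest to H19 were Slc25a22 at 0.0735, Adh1 at 0.0869 and Ap1g2 at 0.0893, and nearest to Meg3 were Ahi1 at 0.120, Dlg4 at 0.121 and Car9 at 0.145. The measure is a description over 8 libraries that also share depth and scaling. With values centred on WT it takes in the genotype difference, so genes with a like fold change come out near. The log2 fold change was 0.92 for Calr, 0.95 for Vat1 and 0.91 for Mmp2, beside 0.95 for Igf2. Whether these genes vary together within a group was not tested.

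Beyond the 10 genes, 45 of 61 other genes listed as imprinted had a row. Of the 45, 16 were higher, 10 lower and 19 short of the threshold, with a median log2 fold change of 0.15. By the same rule 25.0% of all genes were higher and 24.4% were lower. Zdbf2, a paternally read gene known for its effect on early growth of mice, had the largest rise, from 25.4 ± 4.61 to 142 ± 7.68 normalized counts (SD, n = 4 each), a log2 fold change of 2.49 (SE 0.15). Plagl1, a zinc finger gene that is known in mice to act on other imprinted genes, was higher by 0.65, as was Inpp5f, an inositol phosphatase gene. Plagl1 did not pass after quantile normalization (0.38, limma adjusted p = 0.0615). Slc38a4, an amino acid transporter gene, was lower at -0.92, from 2358 ± 263 to 1246 ± 134. Dcn was higher by 0.66, from 10580 ± 1140 to 16700 ± 1040. It is also counted below among the markers of fibro-adipogenic progenitors. Calcr, which did not pass, is likewise counted below among those of satellite cells. The count of other imprinted genes depended on scaling, as did that of all 15433 genes. With libraries scaled to their totals 28 were higher and 2 lower, beside 9480 higher and 761 lower over all genes. After quantile normalization 12 were higher and 10 lower, beside 3112 and 4154 over all genes.

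**Figure D4:**
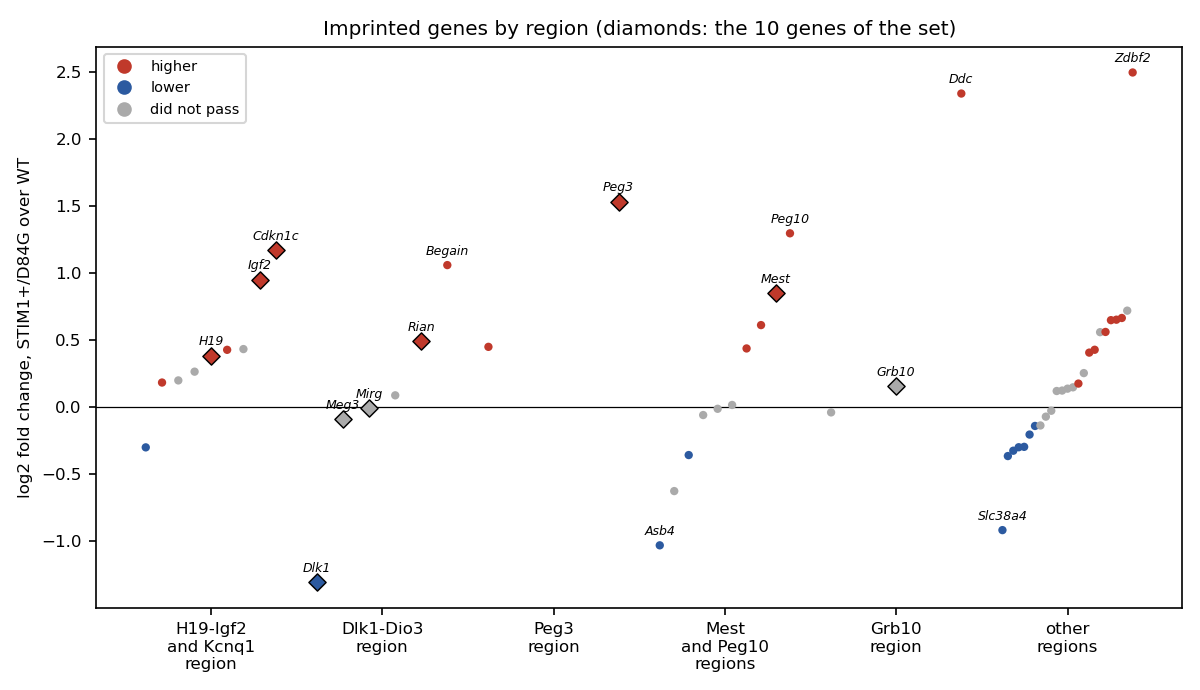
Log2 fold change of STIM1+/D84G over WT (vertical axis) for the 55 measured genes listed as imprinted, grouped by listed region and ordered by value within each. Diamonds are the 10 genes and dots the other 45. Red passed as higher, blue as lower and grey did not pass, and the extremes are Zdbf2 at 2.49 and Dlk1 at -1.31.

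Of 12 measured genes whose products set, keep or remove imprints, 4 were lower and 8 did not pass. Tet1, Tet2 and Tet3, whose products take part in removing DNA methylation, are among the 8. By the same rule 24.4% of all genes were lower and 25.0% were higher. The median log2 fold change was -0.04 over the 12 genes and 0.01 over all genes. Lower were Dnmt3a, a de novo DNA methyltransferase, at -0.53, and Ctcf, the insulator protein bound between Igf2 and H19, at -0.35. So were the zinc finger gene Zfp445 at -0.23 and Trim28, its corepressor, at -0.13. Trim28 did not pass with replicate numbers as a block (limma adjusted p = 0.0567) and passed in 2 of 8 fits that left out 1 library. With libraries scaled to their totals the list went to 6 higher and 1 lower. The same scaling made 9480 of all 15433 genes higher and 761 lower. Ctcf then did not pass (limma adjusted p = 0.946), Trim28 was higher by 0.22 and Dnmt3a stayed lower at -0.18. Among 10 measured long noncoding RNAs, Rian and H19 were higher with Gas5 (0.25), and the nuclear RNAs Neat1 and Malat1 were lower at -0.51 and -0.38. With libraries scaled to their totals neither of the nuclear RNAs passed, at -0.16 and -0.03.

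Markers of some cell types moved with the genotype beside the imprinted genes. Across all genes 25.0% were higher and 24.4% were lower by the same rule. All 6 measured markers of regenerating fibres were higher, with a summed level of 1139 to 1372 in WT and 4159 to 5194 in STIM1+/D84G libraries, and so were all 6 of fibro-adipogenic progenitors (38763 to 45636 against 56700 to 74454) and all 5 measured of macrophages (1733 to 2127 against 4630 to 7810). Of 7 satellite cell markers 3 were higher, and Pax7, the defining one, was at 117 ± 32.0 and 126 ± 27.3 normalized counts (SD, n = 4 each) and did not pass. Endothelial markers were lower in 2 of 6, at 8787 to 9641 in WT and 7402 to 9147 in STIM1+/D84G libraries. They were Kdr, at -0.57, and Cdh5, at -0.19, but Cdh5 was at -0.05 after quantile normalization and at 0.16 with libraries scaled to their totals, where it did not pass, and it passed in 2 of 8 fits that left out 1 library. Adipocyte markers were higher in 1 of 5, at 3709.6 to 5643 and 4686 to 6096, beside the fall of Dlk1. Of the muscle fibre markers, 5 of 6 were lower, and Myh1, a myosin heavy chain gene, was higher by 1.04 on the log2 scale. With libraries scaled to their totals Acta1 was at -0.11 and did not pass (limma adjusted p = 0.285). Ckm stayed lower with that scaling, at -0.31. Higher were also 2 of 4 tenocyte markers, 2 of 6 of pericytes and smooth muscle and 1 of 5 of Schwann cells, and the rest of these did not pass. Of 3 measured lymphocyte markers 2 were higher, at summed levels of only 3.43 to 23.9 in WT and 18.3 to 32.1 in STIM1+/D84G libraries. The part of all these cell types in the results for Igf2, H19, Peg3, Mest, Cdkn1c, Rian and Dlk1 was not tested.

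None of the 7 calls rested on 1 library. WT replicate 3 was the highest WT library in 5 of the 10 genes (H19, Igf2, Meg3, Mirg and Peg3) and the lowest in 4 (Dlk1, Mest, Cdkn1c and Grb10). Leaving out each library in turn kept the call of all 7 genes that passed. The log2 fold change then ranged from 1.41 to 1.68 for Peg3, from 1.11 to 1.24 for Cdkn1c, from 0.91 to 0.98 for Igf2 and from 0.78 to 0.94 for Mest. Over the same fits it ranged from 0.36 to 0.58 for Rian, from 0.31 to 0.47 for H19 and from -1.47 to -1.21 for Dlk1. With libraries scaled to their totals H19 was at 0.73 and Rian at 0.84.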

How the data were processed

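Normalized counts (a signal) were used as deposited: the authors divided gene read counts by 1 size factor per library and did not scale by gene length. Every value came out as a whole read (100% within 0.01 of a read). The labels give mm10; the aligner, counter and annotation are not given in the sources used here. Library kits differ between the sources (Kapa Stranded in the methods, SMARTer in the labels), and the strand setting of the counting is not stated. Columns of the authors' own comparison (fold, log2 fold, standard error, Wald statistic, p and adjusted p) were not used.

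Genes with a mean of at least 0.5 (all 15433) were compared on the scale log2(normalized count + 0.1) by limma's moderated test with trend (limma 3.58.1, R 4.3.3), with Benjamini-Hochberg adjustment over all genes at 0.05. Fold changes are on that scale, and in low genes they can lie above or below those from the group means. The script was tested on simulated data. For single values all 70 assignments of 4 against 4 libraries were enumerated in exact permutation tests. edgeR 4.0.16 and DESeq2 1.42.0 on the recovered reads, other scalings, pseudocounts, filters and left-out libraries were alternatives. Sequences, lists and plots were handled in Python 3.11.15 (numpy 2.4.6, pandas 2.3.3; plots: matplotlib 3.10.9).

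Named are the 10 genes, their nearest measured imprinted neighbours, up to 5 genes per list by size of change among those that passed without overlap, the 3 genes most like H19, Igf2 and Meg3 in profile, and markers beside a result. The genes, lists and tests were chosen with earlier results of these data known. Coordinates are those of GENCODE vM21, which matched 15289 genes by identifier.

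Replicate numbers come from the titles, which state no shared litter or day. Deviations of same-numbered WT and STIM1+/D84G libraries had correlations of 0.213, 0.161, 0.150 and 0.123 over 10155 genes. The numbers were treated as pairs in an alternative fit. Differently numbered libraries ranged from -0.299 to 0.371, with 0.222 for WT replicate 4 and STIM1+/D84G replicate 3. The correlations therefore do not single out the replicate numbers as pairs. WT replicates 1 and 2 and STIM1+/D84G replicate 1 share a second number in the column names, and WT replicate 2 correlated most with STIM1+/D84G replicate 1 (0.371).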

Additional observations from a re-analysis of the deposited data

Results flagged for a closer look

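In the ratio of Dlk1 to Meg3, 1 library of each group lay far from the other 3. WT replicate 3 had a ratio of 0.0255, and the highest WT ratio was 0.0636. STIM1+/D84G replicate 3 had a ratio of 0.0319, and the lowest of its group was 0.0183. Chance alone marks about 1 in 20 groups in this way, and 30 groups were examined. Dlk1 had 14 to 45 reads per library.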

How the results depend on the processing

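Under 21 alternatives per gene, Igf2, Cdkn1c, Peg3, Mest, Dlk1 and Rian kept their direction and their call. H19 kept both in all but the fit within 5 libraries, chosen after the data were seen (0.31, limma adjusted p = 0.0774). Of these alternatives, leaving out the filter and scaling by median of ratios gave the values of the main fit again, so they add no support. Scaling to the total raised H19 from 0.38 to 0.73 and Rian from 0.49 to 0.84. Grb10 passed with a pseudocount of 1 (0.15, limma adjusted p = 0.0498) or a minimum mean of 10 (0.15, 0.0489), when scaled without the 50 genes of highest level (0.28), to the total (0.50) or by quantiles (0.29), with edgeR (0.17) or DESeq2 (0.16) and within the 5 libraries (0.22). Meg3 turned to 0.032 when scaled without those 50 genes, to 0.26 when scaled to the total and to 0.070 without WT replicate 3. Mirg turned to 0.11 and 0.34 with these scalings, and to 0.051 with the number in the column names as a term and 0.052 within the 5 libraries. The same scalings moved the all-gene median log2 fold change from 0.01 to 0.14 and 0.36 (quantiles: -0.07) and the counts from 3859 higher and 3765 lower to 5318 and 2245, and 9480 and 761. Other counts lay within 1.5 times, edgeR calling 3953 higher and 3608 lower. Pairing libraries by replicate number as a block gave 3888 higher and 3778 lower and changed no call among the 10 genes. Leaving out 1 library moved Grb10 between 0.12 and 0.21, with a pass without WT replicate 4 (0.18, limma adjusted p = 0.0475) or STIM1+/D84G replicate 1, Meg3 between -0.17 and 0.07 and Mirg between -0.29 and 0.20. For the ratios it moved the log2 difference of H19 to Igf2 between -0.63 and -0.50, Rian to Meg3 between 0.43 and 0.74, Mirg to Meg3 between -0.18 and 0.22, Dlk1 to Meg3 between -1.54 and -1.10 and Cdkn1c to H19 between 0.64 and 0.87. Without WT replicate 1 or 3 H19 to Igf2 and Cdkn1c to H19 passed, as did Rian to Meg3 without WT replicate 1 and Dlk1 to Meg3 without WT replicate 3 (exact permutation test, adjusted p = 0.0476 each), and the cause was not tested. Depth limits Mirg and Dlk1. The limma p values weigh a difference against the spread between 4 mice per group, moderated over all genes.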
